A study of Mus musculus with 16 samples.

Results

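The genes of the major histocompatibility complex (MHC) of the mouse, which carry symbols that begin with H2-, were followed in tibialis anterior muscle of Bin1mck-/- mice and their controls. Of the 29730 genes of the count table, 35 had an Ensembl identifier that GENCODE, on the GRCm38 genome, pairs with such a symbol, against 45 in the whole annotation. They comprised the 2 classical class I genes H2-K1 and H2-D1, 22 other class I genes and pseudogenes, 5 class II chain genes, 5 genes for helpers of class II peptide loading (H2-DM and H2-O) and 1 gene of another kind, H2-Ke6. After the filter on low counts 24 of the 35 remained for testing, and the 11 that did not reached at most 13 counts in any sample. The samples themselves were also divided on a measured value: 10 of the 16 had at least 10 counts of H2-Ea-ps and 6 had fewer, so that H2-Ea-ps itself, selected on those counts, is described by its values. It was fitted with the other genes and is counted among the 24, but no test of it is given.

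Class I molecules, made of a heavy chain such as H2-K1 or H2-D1 with beta-2 microglobulin, present peptides from inside the cell to cytotoxic T cells and are made by nearly all nucleated cells. Class II molecules pair an alpha with a beta chain (H2-Aa with H2-Ab1, H2-Ea with H2-Eb1) and present peptides from ingested material; macrophages, dendritic cells and B cells make them, and the transactivator Ciita turns their genes on. Resting muscle fibres make little class I and no class II, so in whole muscle the class II signal is known to come mainly from resident immune cells. The complex lies on chromosome 17 and differs between inbred strains in sequence and in gene content as a block, the haplotype. In the b haplotype of C57BL/6, the strain of the reference genome, the E alpha gene has lost its promoter and is not transcribed, whereas strains with the k or d haplotype transcribe it.

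All 16 mice were males aged 7 weeks, and the labels give the strain C57BL/6N for every one. There were 4 mice in each of 4 groups: wild type given saline (WT_PBS), wild type given ASO1, an antisense oligonucleotide against Dnm2 (WT_ASO), Bin1mck-/- given saline (KO_PBS) and Bin1mck-/- given the oligonucleotide (KO_ASO). The labels name the mutant Bin1mck-/- and do not describe the allele or the cells in which it acts, and give neither dose nor schedule of the injections. Bin1 encodes amphiphysin 2, which curves membranes, and Dnm2 encodes dynamin 2, a GTPase that severs membrane necks. The study asked how the transcriptome differs across genotypes when Dnm2 is lowered in this model of centronuclear myopathy. Bin1 lay between 462.6 and 619.8 CPM (the gene's count relative to the library's TMM-scaled total) in the 8 wild-type libraries and between 31.7 and 47.7 CPM in the 8 knockout libraries, and Dnm2 between 50.2 and 67.7 CPM with saline and between 20.7 and 31.1 CPM with the oligonucleotide, so every library matched its genotype and treatment. Totals ran from 27591900 to 40862854 counts per library. The muscle fibre markers Acta1, Ckm, Myh4, Des, Tnnt3 and Mylpf summed to between 96460 and 192600 CPM.

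Samples of 1 labelled strain did not carry 1 set of H2 transcripts, and the split did not follow the groups evenly. H2-Ea-ps had at least 10 counts in 1 of 4 WT_PBS, 3 of 4 WT_ASO, 3 of 4 KO_PBS and 3 of 4 KO_ASO libraries. WT_PBS therefore differed from each other group in this respect too, and for the genes described in full KO_PBS vs WT_PBS is given below also with a term for it. Fewer cells of a type and less RNA per cell cannot be told apart in whole-tissue libraries.

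The promoters of 4 of the members described in full are shown first, because elements shared among class II and among class I genes are known to control them. Each line gives the 190 bases before the annotated start, 5′ to 3′ on the gene's strand, from RefSeq on GRCm38.p6. For H2-Aa (chr17:34287824-34288013, minus strand) and H2-Eb1 (chr17:34305677-34305866, plus strand) the capitals mark the Y box, CCAAT or its complement ATTGG, the site in class II promoters that the factor NF-Y binds. For H2-K1 (chr17:34000348-34000537, minus strand) and H2-D1 (chr17:35262904-35263093, plus strand) the capitals mark the palindrome GGGGATTCCCC, the NF-kB element of the class I enhancer.
H2-Aa: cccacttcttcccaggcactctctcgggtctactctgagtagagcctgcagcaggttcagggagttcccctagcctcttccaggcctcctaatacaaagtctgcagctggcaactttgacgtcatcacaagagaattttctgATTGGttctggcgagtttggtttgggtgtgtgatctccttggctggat
H2-Eb1: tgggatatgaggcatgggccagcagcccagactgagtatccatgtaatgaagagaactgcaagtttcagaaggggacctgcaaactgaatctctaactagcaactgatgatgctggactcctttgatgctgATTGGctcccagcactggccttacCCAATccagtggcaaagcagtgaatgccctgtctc
H2-K1: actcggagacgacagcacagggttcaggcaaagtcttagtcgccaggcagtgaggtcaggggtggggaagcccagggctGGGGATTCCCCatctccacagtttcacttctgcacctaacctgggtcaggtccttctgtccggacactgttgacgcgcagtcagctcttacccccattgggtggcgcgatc
H2-D1: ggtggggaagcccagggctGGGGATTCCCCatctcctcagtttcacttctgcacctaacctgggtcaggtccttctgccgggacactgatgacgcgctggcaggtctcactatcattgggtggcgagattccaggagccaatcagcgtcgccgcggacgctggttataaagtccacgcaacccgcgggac

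The Y box began at position -48 from the start in H2-Aa and at -59 and -35 in H2-Eb1. Over windows from 250 bases before to 50 after the start it was common, with a match on either strand in 31 of 35 windows of H2- genes and in 12289 of 32851 windows in all (37.4%). The palindrome reads alike on both strands and was rare: it began at -111 in H2-K1 and at -171 in H2-D1, and 6 of the 32851 windows held it (0.0183%), of which 4 belonged to H2- genes (H2-K1 with 2 starts, H2-D1 and H2-Q6). A pair of GAAA, or TTTC, copies set 2 bases apart, the core of an interferon-stimulated element, was present in 3.44% of all windows and in those of H2-T22 and H2-T23. The letters of the Y box are also in the printed stretches of H2-K1 and H2-D1, where they are not marked, so it is not particular to the class II pair. The letters are those of the C57BL/6J reference, not of the mice studied.

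The other pair of sequences belongs to the largest difference between the 2 sets of samples. Rps18 (chr17:33951999-33956001, minus strand), which encodes a protein of the small ribosomal subunit, lies inside the complex, and Gm10260 (chr13:97760072-97760632, minus strand) is a near copy of it. Their GENCODE M21 transcripts aligned over 545 bases with 99.08% identity, and the 456 coding bases of Rps18 differed at 4 positions. Coding bases 169 to 447 are printed, with the bases that differ in capitals; counted from 1 at the first base of the Rps18 start codon, Rps18 to Gm10260, the differences are T186C, A337C, G371A and G431A.
Rps18: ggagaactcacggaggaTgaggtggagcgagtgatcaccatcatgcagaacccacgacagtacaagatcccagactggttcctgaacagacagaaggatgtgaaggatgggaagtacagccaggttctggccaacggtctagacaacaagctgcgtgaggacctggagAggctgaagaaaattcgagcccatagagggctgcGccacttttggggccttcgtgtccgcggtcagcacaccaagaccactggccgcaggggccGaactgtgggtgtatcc
Gm10260: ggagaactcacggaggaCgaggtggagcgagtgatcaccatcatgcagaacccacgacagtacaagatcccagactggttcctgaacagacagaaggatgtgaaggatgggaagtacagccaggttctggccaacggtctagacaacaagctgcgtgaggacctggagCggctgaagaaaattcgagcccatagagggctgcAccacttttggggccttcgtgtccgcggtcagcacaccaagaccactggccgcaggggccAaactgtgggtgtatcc

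H2-Ea-ps (ENSMUSG00000036322, chr17:34341959-34344645, minus strand) is the E alpha chain, annotated in C57BL/6J as a polymorphic pseudogene. Its raw counts in replicates 1 to 4 were 0, 116, 0 and 0 in WT_PBS, 44, 136, 143 and 0 in WT_ASO, 319, 0, 210 and 214 in KO_PBS and 107, 85, 78 and 1 in KO_ASO. The lowest value above the dividing count of 10 was thus 44, and the highest below it was 1. In 5 of the 6 libraries below it no count was found. No library lay between.

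Among the 10 libraries with H2-Ea-ps counts, its level moved with that of H2-Aa, the alpha chain of the other class II molecule. H2-Ea-ps counts were between 17.4% and 23% of H2-Aa counts in 9 of them. WT_ASO replicate 2 stood apart at 37.5%. The highest H2-Ea-ps level, 8.79 CPM, was in KO_PBS replicate 1, which also had the highest H2-Aa level, and the lowest, 1.44 CPM, in WT_ASO replicate 1, which had the lowest. The 5 genes whose log2 CPM was most like that of H2-Ea-ps over the 16 samples, by Pearson correlation, were Tnxa, Gm6368, Gm10260, Gm18733 and Gm10499; since the samples fall into 2 clusters, no coefficient is given.

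All 14960 genes that passed the filter were then examined for values that did not overlap between the 10 libraries with and the 6 without H2-Ea-ps counts. There were 27 such genes (0.18%), 17 of the 740 tested on chromosome 17 (2.3%) and 10 of the 14220 tested on all other chromosomes (0.0703%). A dividing count of 50, which moves WT_ASO replicate 1 with its 44 counts to the other set, left 5 on chromosome 17. Of the 17, 15 lay in the window from 1 Mb before to 3 Mb after the start of H2-Ea-ps, which held 140 tested genes (10.7%), a window set after the positions were seen. The other 2 were Adgrf4, an adhesion receptor 8.315 Mb after it, and Fam98a, 41.2 Mb after it, whose means differed by 0.18 on the log2 scale. By at least 2-fold, 9 chromosome 17 genes were higher and 2 lower in the libraries with H2-Ea-ps, against 2 genes on the other chromosomes. H2-Ea-ps is itself counted in the 27, the 17, the 15 and the 9, and its separation was set by the division.

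**Figure D1:**
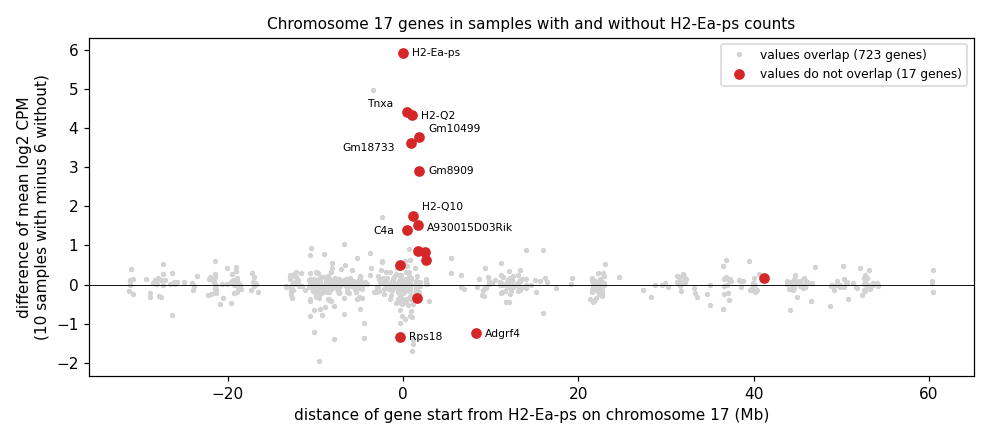
Difference of mean log2 CPM (prior count 2) between the 10 libraries with and the 6 without H2-Ea-ps counts for the 740 chromosome 17 genes tested, by distance in Mb from H2-Ea-ps; red points are the 17 genes whose values did not overlap and grey points the 723 others. The red points include H2-Ea-ps itself, which defined the sets, and the others lie close to it, with Adgrf4 and Fam98a to the right.

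Of the 24 H2- genes tested, 4 did not overlap between the sets (background 0.18% of all genes), and 1 of these, H2-Ea-ps, defined them. H2-Q2, a class I gene of the Q region, ran from 0.882 to 2.1995 CPM with and 0 to 0.0697 CPM without H2-Ea-ps. H2-Q10, which encodes a secreted class I heavy chain known best from liver, ran from 0.521 to 1.04 CPM with and 0.0278 to 0.340 CPM without. H2-T24, a class I gene of the T region, ran from 4.07 to 6.82 CPM with and 2.10 to 3.66 CPM without. All 3 were thus higher in the libraries with H2-Ea-ps, H2-Q2 from near 0.

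H2-T24 shares its locus, on the opposite strand, with the noncoding gene A930015D03Rik, which ran from 0.293 to 0.868 CPM with and 0.105 to 0.226 CPM without, and reads of the pair cannot be told apart where the strand setting of the counting is unknown. The nearby predicted gene Gm10499 ran from 0.670 to 1.27 CPM with and 0 to 0.0501 CPM without, and Gm8909 from 0.295 to 0.733 CPM with and 0 to 0.174 CPM without. Between H2-Ea-ps and H2-D1, Tnxa ran from 1.07 to 2.78 CPM with and 0 to 0.0519 CPM without, and its neighbour C4a, which encodes the complement-related sex-limited protein, ran from 0.372 to 0.937 CPM with and 0.0697 to 0.351 CPM without. Gm18733, beyond H2-D1, ran from 0.447 to 0.851 CPM with and had no count in any of the 6 libraries without. Tnxa, Gm10499, Gm8909 and Gm18733 were thus at most 0.174 CPM in every library without H2-Ea-ps.

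Farther along, Trim26, a ubiquitin ligase gene, ran from 30.7 to 59.2 CPM with and 19.6 to 25.2 CPM without, and Ppp1r11, an inhibitor of protein phosphatase 1, from 25.0 to 37.5 CPM with and 15.9 to 22.2 CPM without. Both are expressed in all 16 libraries and differed in level only. Lower in the libraries with H2-Ea-ps were Rps18, given below, and Adgrf4, which ran from 0.138 to 0.447 CPM with and 0.468 to 0.953 CPM without.

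For the other members the sets overlapped, several by 1 library only. H2-D1 ran from 33.1 to 69.3 CPM with and 69.2 to 133 CPM without, with a mean difference of -0.67 on the log2 scale. H2-Q5, H2-Q6 and H2-Q7, neighbouring Q genes, had the largest differences among overlapping members, -1.69, -1.41 and -1.51. H2-Ke6, which encodes a 17-beta-hydroxysteroid dehydrogenase and no antigen-presenting molecule, ran from 0.174 to 0.986 CPM with and 0.963 to 1.32 CPM without. The class II chains H2-Aa, H2-Ab1 and H2-Eb1 differed by -0.22, -0.45 and -0.48 with wide overlap.

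Rps18 and Gm10260 moved in opposite directions between the sets. In the 6 libraries without H2-Ea-ps, Rps18 ran from 22.0 to 29.8 CPM and Gm10260 from 0 to 0.104 CPM. In 9 of the 10 libraries with H2-Ea-ps, Rps18 ran from 11.7 to 15.1 CPM and Gm10260 from 17.3 to 25.9 CPM, so that Rps18 took between 33.1% and 41.5% of their joint counts. In WT_ASO replicate 2 Rps18 was nearly absent, at 1.13 CPM and 2.84% of the joint counts, and Gm10260 stood at 38.6 CPM. The sum of both genes ran from 29.6 to 41.0 CPM with and from 22.1 to 29.9 CPM without H2-Ea-ps, overlapping narrowly.

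**Figure D2:**
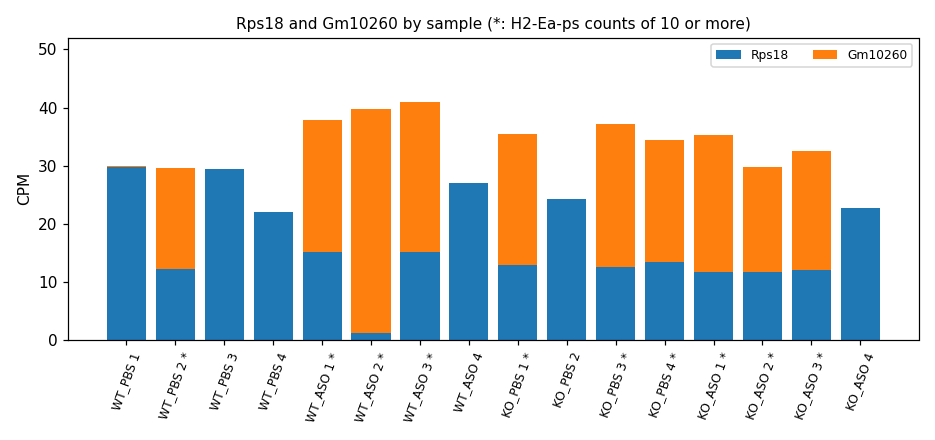
CPM of Rps18 (blue) and Gm10260 (orange), stacked, in each of the 16 libraries; an asterisk marks the 10 libraries with at least 10 counts of H2-Ea-ps. Bars without an asterisk are blue alone, and in WT_ASO replicate 2 the bar is nearly all orange.

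A second gene outside chromosome 17 had the same division. Gm6368, a processed pseudogene on the X chromosome, ran from 3.20 to 6.01 CPM in those 9 libraries, stood at 8.16 CPM in WT_ASO replicate 2, and ran from 0.0778 to 0.174 CPM in the 6 without H2-Ea-ps. Hsp90ab1, which encodes the chaperone HSP90 beta, lies 11.23 Mb after H2-Ea-ps, and the transcripts were 90.85% identical over 2174 bases. Hsp90ab1 itself ran from 1272 to 1626 CPM with and from 1198 to 1338 CPM without. Gm10260 and Gm6368 were the only genes off chromosome 17 that did not overlap and differed at least 2-fold.

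WT_ASO replicate 2 lay outside the range of the other 9 libraries with H2-Ea-ps in 9 of the 24 members, each time below it; over all genes tested it lay below that range in 13.6% and above it in 13.3%. H2-Q7 stood at 0.116 CPM against 1.82 to 4.05 CPM, H2-Q6 at 0.521 against 3.06 to 7.01 CPM and H2-Q5 at 0.0289 against 0.248 to 0.787 CPM. H2-D1 stood at 33.1 against 49.6 to 69.3 CPM and H2-K1 at 49.2 against 60.2 to 89.0 CPM. The other 4 were H2-Q4, H2-K2, H2-M3 and H2-Ke6. For Rps18, H2-Q5, H2-Q6, H2-Q7, H2-D1 and H2-Ke6 the libraries thus stood in 3 steps in order of their medians: the 6 without H2-Ea-ps, then the 9, then WT_ASO replicate 2. These genes were picked after their values were seen. The ranges of the 6 and the 9 overlapped for all of them but Rps18, and the last step is a single library. For H2-Ea-ps, H2-Q2, H2-Q10 and H2-T24 that library lay within the range of the 9.

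Before the complex, the division changed from library to library in genes picked after their values were seen. AC165951.1, a noncoding gene 3.42 Mb before H2-Ea-ps, had 2.16, 3.58, 0.0519 and 0 in WT_PBS, 2.06, 4.08, 3.55 and 0 in WT_ASO, 5.71, 0, 4.00 and 4.04 in KO_PBS and 3.80, 2.68, 4.36 and 0 in KO_ASO (CPM, replicates 1 to 4). WT_PBS replicate 1, without H2-Ea-ps, there had the level of the libraries with it, and the other 5 without were at or near 0. Rps2, which encodes another ribosomal protein and lies 9.62 Mb before H2-Ea-ps, had 24.7, 46.0, 61.3 and 43.9 in WT_PBS, 0.491, 0.521, 31.4 and 61.1 in WT_ASO, 23.9, 56.6, 29.2 and 23.2 in KO_PBS and 23.5, 23.5, 20.9 and 51.8 in KO_ASO (CPM, replicates 1 to 4). It stood at 0.491 and 0.521 CPM in WT_ASO replicates 1 and 2 and at least 20.9 CPM in all others, so WT_ASO replicate 1 was with replicate 2 at Rps2 but not at Rps18. Atp6v0c, a proton pump subunit gene that lies farther out, had its 2 lowest values, 0.579 and 0.655 CPM, in the same pair of libraries.

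Between the groups, the class II chains had their highest levels in saline-treated knockout muscle, and edgeR, fitted over all 16 samples with 1 mean per group and no other term, called no H2- gene in any comparison. In KO_PBS vs WT_PBS 0 of the 24 members had an edgeR adjusted P value under 0.05, where 12.6% of all 14960 genes did; 2 had an unadjusted p under 0.05, as did 27.3% of all genes, and DESeq2 called 0, against 14.1% of all genes. In KO_ASO vs KO_PBS 0 of 24 were called, against 3.64% of all genes; 11 had an unadjusted p under 0.05, as did 17.7% of all genes, and DESeq2 called 2, H2-Q4 and H2-Aa, against 6.44% of all genes. Without KO_ASO replicate 4, H2-Q5, H2-Q6, H2-K1 and H2-T22 of the 11 were no longer under 0.05 (unadjusted edgeR p from 0.098 to 0.401). The comparisons share the KO_PBS libraries, so their values are set side by side and not related to each other.

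H2-Aa (ENSMUSG00000036594), the A alpha chain, had 27.4, 18.8, 13.5 and 12.7 in WT_PBS, 6.74, 10.5, 20.3 and 23.3 in WT_ASO, 38.4, 34.1, 23.1 and 29.2 in KO_PBS and 14.6, 15.6, 15.3 and 18.0 in KO_ASO (CPM, replicates 1 to 4). All 4 KO_PBS values exceeded every KO_ASO value, and KO_PBS overlapped with WT_PBS by 1 library on each side. The means were 18.1 ± 6.78, 15.2 ± 7.87, 31.2 ± 6.56 and 15.9 ± 1.47 CPM (SD, n = 4 each). By edgeR the difference was log2FC 0.79, SE 0.324, adjusted P value 0.128 in KO_PBS vs WT_PBS and log2FC -0.98, SE 0.326, adjusted P value 0.118 in KO_ASO vs KO_PBS. A two-sided exact permutation test of the latter gave p = 0.0286, the smallest that 4 samples against 4 allow. DESeq2 called the latter (adjusted P value 0.0328), as did edgeR fitted to the 2 groups alone (adjusted P value 0.0148), which left the former at an adjusted P value of 0.0531.

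H2-Ab1 (ENSMUSG00000073421), its beta partner, had 17.3, 11.9, 11.6 and 8.52 in WT_PBS, 3.53, 6.37, 15.2 and 16.7 in WT_ASO, 21.6, 25.5, 15.9 and 18.3 in KO_PBS and 9.18, 10.9, 8.79 and 14.6 in KO_ASO (CPM, replicates 1 to 4). KO_PBS and KO_ASO did not overlap. By edgeR the difference was log2FC 0.72, SE 0.371, adjusted P value 0.228 in KO_PBS vs WT_PBS and log2FC -0.90, SE 0.374, adjusted P value 0.209 in KO_ASO vs KO_PBS. H2-Eb1 (ENSMUSG00000060586), the E beta chain, had 17.1, 12.5, 11.7 and 8.90 in WT_PBS, 3.40, 4.34, 14.6 and 15.4 in WT_ASO, 23.7, 26.2, 16.6 and 16.8 in KO_PBS and 9.26, 9.81, 9.14 and 13.3 in KO_ASO (CPM, replicates 1 to 4). Here, too, every KO_PBS library lay above every KO_ASO library. The edgeR values were log2FC 0.73, SE 0.388, adjusted P value 0.242 and log2FC -1.003, SE 0.392, adjusted P value 0.183 in the same order. Fitted to the 2 groups compared alone, edgeR called H2-Ab1 and H2-Eb1 both in KO_PBS vs WT_PBS (adjusted P values 0.0438 and 0.0415) and in KO_ASO vs KO_PBS (adjusted P values 0.0444 and 0.0270).

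**Figure D3:**
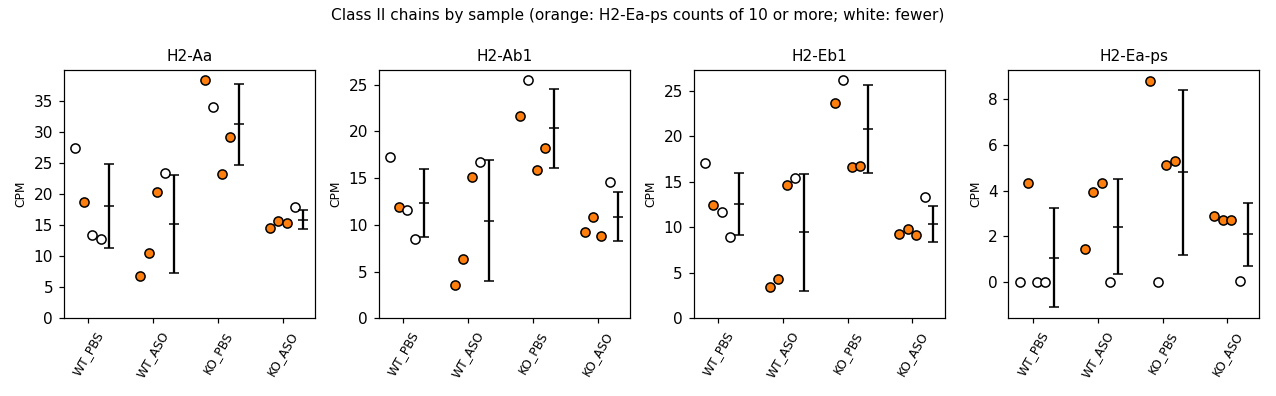
CPM of H2-Aa, H2-Ab1, H2-Eb1 and H2-Ea-ps in each library by group; orange points are libraries with at least 10 counts of H2-Ea-ps, white points those with fewer, and bars give the mean and SD of 4. The 4 KO_PBS points of the first 3 genes lie above all KO_ASO points, and the WT_ASO points are widely spread.

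The first 3 chains varied together among mice of one group: WT_ASO replicates 1 and 2 had the lowest values of all 16 libraries for H2-Eb1 and for H2-Ab1, at 3.40 and 4.34 CPM and at 3.53 and 6.37 CPM, while replicates 3 and 4 lay within the range of WT_PBS. For H2-Ea-ps the groups differed in the number of libraries that had it, as given above. Among carrying libraries its levels were 8.79, 5.12 and 5.28 CPM in KO_PBS, 2.91, 2.72 and 2.70 CPM in KO_ASO, 1.44, 3.93 and 4.34 CPM in WT_ASO and 4.32 CPM in the only WT_PBS library. H2-Eb2 was below the filter.

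With H2-Ea-ps class as a term of the fit, the KO_PBS vs WT_PBS log2FC of H2-Aa, H2-Ab1 and H2-Eb1 became 0.94, 0.96 and 0.96 (adjusted P values 0.0816, 0.0888 and 0.116 by edgeR). Restricted to the 3 libraries per group with H2-Ea-ps, KO_ASO vs KO_PBS gave log2FC of -0.99, -0.95 and -1.01 (adjusted P values 0.160, 0.275 and 0.297). KO_PBS vs WT_PBS could not be fitted within libraries of one class, since 1 WT_PBS library had H2-Ea-ps. The differences were thus about as large with the term in the first comparison and within one class in the second, and edgeR called none of them.

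Of the 4 class II helpers tested, H2-DMa, which with H2-DMb1 or H2-DMb2 forms the molecule that exchanges peptides on class II, had 3.48, 2.76, 2.62 and 2.23 in WT_PBS, 0.949, 2.31, 3.55 and 3.67 in WT_ASO, 4.03, 5.18, 2.27 and 3.38 in KO_PBS and 1.52, 2.24, 1.87 and 2.82 in KO_ASO (CPM, replicates 1 to 4). KO_PBS had the highest mean, 3.71 ± 1.22 CPM (SD, n = 4), and overlapped with every group. The edgeR values of H2-DMa were log2FC 0.42, SE 0.331, adjusted P value 0.449 in KO_PBS vs WT_PBS and log2FC -0.82, SE 0.337, adjusted P value 0.206 in KO_ASO vs KO_PBS. The first became 0.64 with the H2-Ea-ps term (adjusted P value 0.202). It overlaps Brd2 on the opposite strand, which averaged 3032 counts per library. H2-DMb1 and H2-DMb2, 95.4% identical over 848 aligned bases, differed by -0.77 and -1.27 in KO_ASO vs KO_PBS (adjusted P values 0.252 and 0.140 by edgeR), and reads of this pair may be split between them. H2-Ob, the beta chain of the H2-O molecule that restrains H2-DM, stayed between 0.0692 and 0.418 CPM, and H2-Oa was below the filter.

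By class, H2-Aa, H2-Ab1 and H2-Eb1 had positive log2FC in KO_PBS vs WT_PBS, with a median of 0.73, and negative log2FC in KO_ASO vs KO_PBS, with a median of -0.98; over all genes tested the medians were -0.01 and 0.01. The 4 helpers had medians of 0.51 and -0.79, with 3 of 4 positive in the first comparison and 4 of 4 negative in the second. edgeR, fitted over all 16 samples with 1 mean per group, called none of these 7.

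**Figure D4:**
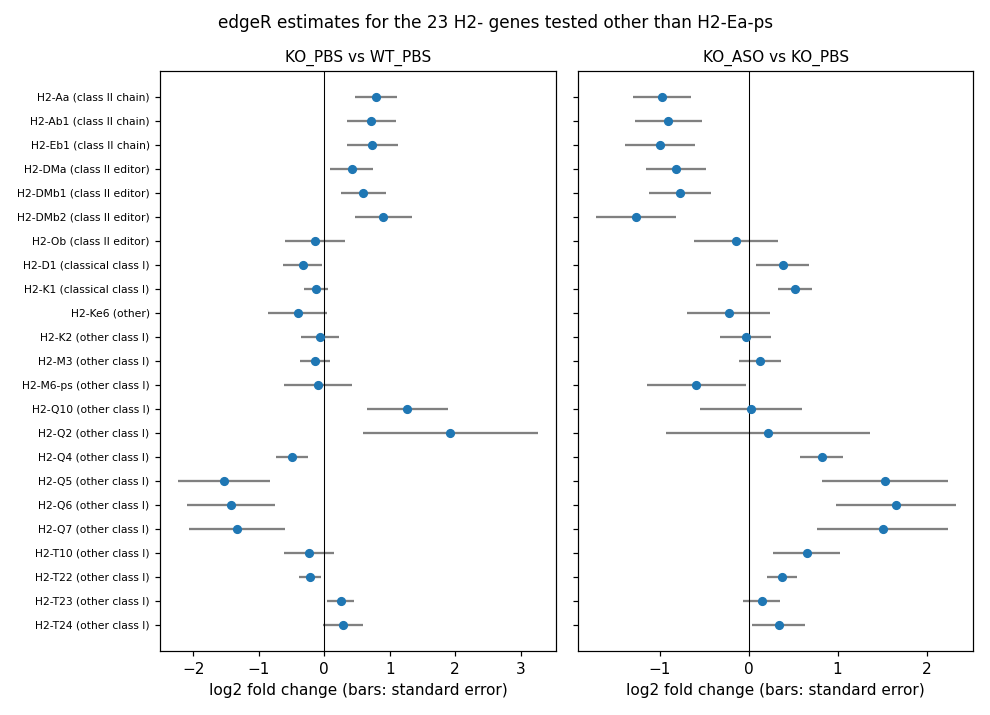
edgeR log2FC (points) with standard errors (bars) of the 23 tested H2- genes other than H2-Ea-ps, ordered by class, in KO_PBS vs WT_PBS and in KO_ASO vs KO_PBS. The class II chains lie right of 0 in the first and left of 0 in the second, and H2-Q4 to H2-Q7 the other way; in this fit over all 16 samples edgeR called no member.

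The classical class I genes were the most abundant members per length of exon, with medians over the 16 libraries of 25.0 CPM per kb for H2-D1 and 24.4 CPM per kb for H2-K1, whose ranges overlapped almost wholly. H2-Eb1, H2-Ab1, H2-Aa and H2-Q4 followed at 6.63, 5.16, 4.84 and 4.80 CPM per kb, also overlapping in range, and H2-Ob was last at 0.0410 CPM per kb. H2-K1 (ENSMUSG00000061232) had 78.3, 69.2, 68.3 and 79.2 in WT_PBS, 70.9, 49.2, 75.7 and 80.2 in WT_ASO, 60.2, 67.7, 70.4 and 71.7 in KO_PBS and 89.0, 78.2, 71.4 and 148 in KO_ASO (CPM, replicates 1 to 4). KO_ASO replicate 4 stood far above all other libraries. edgeR gave log2FC -0.13, SE 0.190, adjusted P value 0.720 in KO_PBS vs WT_PBS and log2FC 0.52, SE 0.190, adjusted P value 0.151 in KO_ASO vs KO_PBS, and without KO_ASO replicate 4 the latter log2FC was 0.24 (adjusted P value 0.354). The former turned to 0.05 with the H2-Ea-ps term (adjusted P value 0.880).

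H2-D1 (ENSMUSG00000073411) had 82.8, 57.6, 77.5 and 82.6 in WT_PBS, 52.8, 33.1, 63.5 and 89.97 in WT_ASO, 49.6, 69.2, 54.4 and 65.7 in KO_PBS and 69.3, 58.3, 51.4 and 133 in KO_ASO (CPM, replicates 1 to 4). In each group the library or libraries without H2-Ea-ps were the highest. The edgeR values of H2-D1 were log2FC -0.33, SE 0.297, adjusted P value 0.517 in KO_PBS vs WT_PBS and log2FC 0.38, SE 0.298, adjusted P value 0.564 in KO_ASO vs KO_PBS. With the H2-Ea-ps term the first became 0.04, and restricted to libraries with H2-Ea-ps the second became 0.08 (adjusted P values 0.920 and 0.896).

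H2-Q4 (ENSMUSG00000035929), a Q region class I gene, had 12.5, 12.4, 13.6 and 16.4 in WT_PBS, 10.9, 7.49, 11.6 and 13.3 in WT_ASO, 9.18, 8.84, 12.2 and 8.85 in KO_PBS and 13.7, 13.1, 12.9 and 29.4 in KO_ASO (CPM, replicates 1 to 4). The groups KO_PBS and WT_PBS did not overlap, nor did KO_PBS and KO_ASO. edgeR gave log2FC -0.49, SE 0.243, adjusted P value 0.203 in the first comparison and log2FC 0.82, SE 0.244, adjusted P value 0.0747 in the second, the lowest adjusted P value of any member in that comparison; DESeq2 called the second (adjusted P value 0.0191). With the H2-Ea-ps term the first became -0.26 (adjusted P value 0.493). Without KO_ASO replicate 4 the second log2FC was 0.44 (adjusted P value 0.142), and the exact permutation p of each comparison was 0.0286, the smallest possible. In all, 3 members did not overlap between KO_PBS and WT_PBS (H2-Q4, H2-Q6 and H2-Q7), where 20.4% of all genes did not, and 5 between KO_ASO and KO_PBS (H2-Aa, H2-Ab1, H2-Eb1, H2-Q4 and H2-Q6), where 10.4% of all genes did not.

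**Figure D5:**
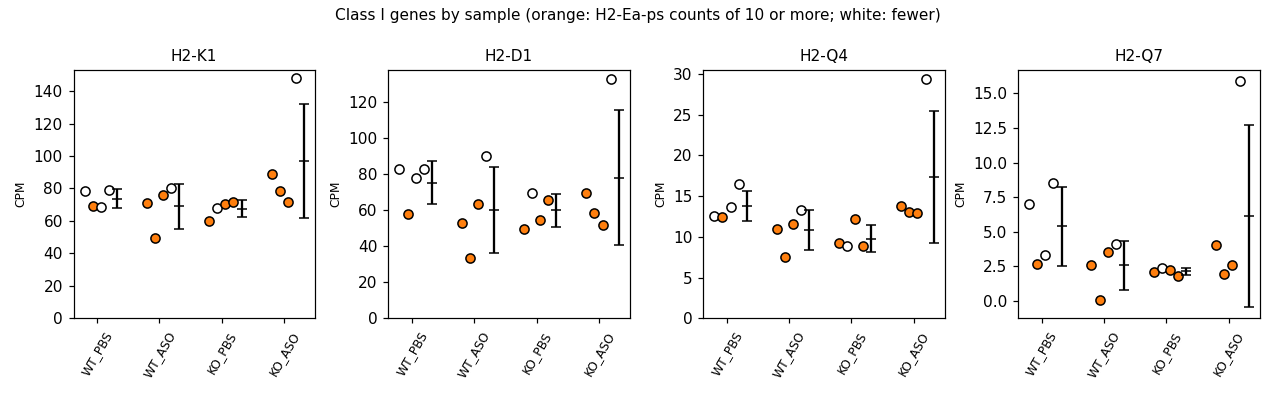
CPM of H2-K1, H2-D1, H2-Q4 and H2-Q7 in each library by group; orange points are libraries with at least 10 counts of H2-Ea-ps, white points those with fewer, and bars give the mean and SD of 4. The white KO_ASO point, replicate 4, is the highest of all libraries for the 4 genes.

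H2-Q7, known as Qa-2, had 7.02, 2.68, 3.29 and 8.55 in WT_PBS, 2.59, 0.116, 3.55 and 4.11 in WT_ASO, 2.12, 2.41, 2.24 and 1.82 in KO_PBS and 4.05, 1.98, 2.63 and 15.9 in KO_ASO (CPM, replicates 1 to 4). H2-Q6 had 12.1, 4.69, 5.29 and 14.4 in WT_PBS, 4.91, 0.521, 5.98 and 8.25 in WT_ASO, 3.06, 4.48, 3.07 and 3.06 in KO_PBS and 7.01, 5.98, 4.53 and 25.5 in KO_ASO (CPM, replicates 1 to 4). KO_ASO replicate 4 was the highest library for both, at 15.9 and 25.5 CPM. Their log2FC and that of H2-Q5 were -1.33, -1.42 and -1.53 in KO_PBS vs WT_PBS and 1.51, 1.65 and 1.54 in KO_ASO vs KO_PBS (edgeR adjusted P values from 0.174 to 0.309). Fitted to KO_PBS and WT_PBS alone, edgeR called H2-Q4, H2-Q5, H2-Q6 and H2-Q7 (adjusted P values 0.0434, 0.0404, 0.0261 and 0.0305). The H2-Ea-ps term brought the first set to -0.52, -0.68 and -0.50, and the libraries with H2-Ea-ps alone gave 0.49, 0.94 and 0.71 for the second. For 11 of the 24 members another member was at least 90% identical in aligned transcript, including these 3, so that reads shared between copies may be lost or misassigned.

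H2-T23 (ENSMUSG00000067212), which encodes Qa-1 and presents class I leader peptides to natural killer cell receptors, had 6.70, 5.55, 8.35 and 7.42 in WT_PBS, 6.02, 5.64, 7.38 and 8.56 in WT_ASO, 8.08, 8.10, 8.24 and 9.02 in KO_PBS and 7.63, 7.86, 6.78 and 14.8 in KO_ASO (CPM, replicates 1 to 4). Apart from KO_ASO replicate 4 all libraries lay between 5.55 and 9.02 CPM. The edgeR values of H2-T23 were log2FC 0.25, SE 0.209, adjusted P value 0.477 and log2FC 0.15, SE 0.209, adjusted P value 0.797 in the same 2 comparisons, and the second turned to -0.18 among libraries with H2-Ea-ps. With the H2-Ea-ps term the first became 0.52 (adjusted P value 0.0580). H2-Ke6 had 1.32, 0.708, 1.12 and 1.25 in WT_PBS, 0.622, 0.174, 0.759 and 1.31 in WT_ASO, 0.744, 0.963, 0.634 and 0.986 in KO_PBS and 0.923, 0.352, 0.346 and 1.22 in KO_ASO (CPM, replicates 1 to 4). It differed by log2FC -0.41, SE 0.451, adjusted P value 0.609 and log2FC -0.22, SE 0.467, adjusted P value 0.872, and its lowest library was WT_ASO replicate 2. With the H2-Ea-ps term the first turned to 0.10 (adjusted P value 0.905). The remaining class I members tested, H2-K2, H2-M3, H2-M6-ps, H2-Q2, H2-Q10, H2-T10, H2-T22 and H2-T24, had log2FC from -0.23 to 1.93 in the first comparison and from -0.59 to 0.65 in the second. The highest value of the first, 1.93 for H2-Q2, became 0.15 with the H2-Ea-ps term, H2-Q10 went from 1.27 to 0.34, and H2-T24, H2-M3 and H2-K2 turned from 0.29, -0.14 and -0.06 to -0.20, 0.12 and 0.28, all uncalled by edgeR.

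In wild-type muscle the oligonucleotide left no member called: WT_ASO vs WT_PBS had 0 of 24 by edgeR, 0 at an unadjusted p under 0.05 and 0 by DESeq2, with 0.00668% of all genes called by edgeR and 0.213% by DESeq2. KO_ASO vs WT_PBS had 0 of 24 by edgeR, 0 at an unadjusted p under 0.05 and 0 by DESeq2, with 0.0401% of all genes called by edgeR and 0.542% by DESeq2. KO_ASO vs WT_ASO had 0 of 24 by edgeR, 3 at an unadjusted p under 0.05 (H2-Q4, H2-M6-ps and H2-K1), as were 15.1% of all genes, and 0 by DESeq2, with 0.0735% of all genes called by edgeR and 3.04% by DESeq2. The test of whether the oligonucleotide acted differently in the 2 genotypes had 0 of 24 by edgeR, 6 at an unadjusted p under 0.05, as were 12.7% of all genes, and 1 by DESeq2 (H2-Q4), with 0.575% of all genes called by edgeR and 2.2% by DESeq2.

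The median log2FC of the 23 members other than H2-Ea-ps was -0.24 in WT_ASO vs WT_PBS, 0.01 in KO_ASO vs WT_PBS and 0.34 in KO_ASO vs WT_ASO, beside medians within 0.01 of 0 over all genes. In the last comparison H2-Q4 differed by 0.67 (adjusted P value 0.220 by edgeR), and H2-Aa, H2-Ab1 and H2-Eb1 by 0.06, 0.05 and 0.13 (adjusted P values 0.954, 0.963 and 0.908). These comparisons share samples with the first 2.

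The class II pathway outside the complex had called genes in the same 2 comparisons. Of its 10 genes 9 were tested, and 4 rose in KO_PBS vs WT_PBS, where 7.43% of all genes rose: Ctss, the protease that trims the invariant chain, by 2.18 (SE 0.551, adjusted P value 0.0189), Ifi30, a lysosomal thiol reductase, by 0.94 (SE 0.151, adjusted P value 0.000776), Lgmn, an asparagine endopeptidase, by 0.87 (SE 0.169, adjusted P value 0.00354) and Cd86, a T cell costimulator, by 1.11 (SE 0.343, adjusted P value 0.0431), all log2 by edgeR. In KO_ASO vs KO_PBS 3 fell, where 2.83% of all genes fell: Ciita by 1.37 (SE 0.353, adjusted P value 0.0421), Ctss by 2.16 (SE 0.552, adjusted P value 0.0447) and Ifi30 by 0.70 (SE 0.150, adjusted P value 0.0176). Cd74, the invariant chain, differed by 0.84 and -1.07 without passing (adjusted P values 0.0712 and 0.0562). Median log2FC over the 9 were 0.87 and -0.70. DESeq2 called 8 genes of the list in the first comparison, of which Rfxap had a negative log2FC (-0.37 by edgeR), and 7 in the second, Cd74 in both; these stand beside its shares of 14.1% and 6.44% of all genes.

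Single libraries weighed on several of these calls. Ctss stood at 38.0 CPM in KO_PBS replicate 4 against 5.27 to 10.4 CPM in the other 3 KO_PBS libraries and 2.31 to 4.50 CPM in WT_PBS. Without that library its log2FC was 1.13 and -1.11 in the 2 comparisons (adjusted P values 0.0398 and 0.0920 by edgeR). With each of the 8 libraries of the groups compared left out in turn, 2 to 4 of the 4 called genes were called in KO_PBS vs WT_PBS, Ifi30 and Lgmn each time, and 0 to 3 of the 3 in KO_ASO vs KO_PBS. With the H2-Ea-ps term the calls were Lgmn and Ifi30 in the first comparison and Ciita and Ifi30 in the second.

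The class I pathway had 2 called genes. Of 15 genes, all tested, Canx and Pdia3, chaperones of heavy chain folding, rose in KO_PBS vs WT_PBS, where 7.43% of all genes rose, by 0.28 and 0.44 log2 (adjusted P values 0.0296 and 0.0365 by edgeR); leaving out single libraries, such as WT_PBS replicate 1, left 0 of these 2 called at the fewest, and in KO_ASO vs KO_PBS edgeR called 0, with 3 at an unadjusted p under 0.05 and 0 by DESeq2. B2m, the light chain, differed by 0.19 and 0.26 in the 2 comparisons, and Nlrc5, the class I transactivator, by -0.24 and 0.66 (adjusted P values from 0.209 to 0.624 over both genes). Of 12 interferon gamma genes 11 were tested, and Cxcl10, a chemokine, rose by 3.30 log2 in KO_PBS vs WT_PBS (SE 0.636, adjusted P value 0.00310). The list as a whole had 9 negative and 2 positive log2FC there, with a median of -0.19; 3 had an unadjusted p under 0.05, and DESeq2 called Cxcl10 and Iigp1, a GTPase with a log2FC of -1.36 (adjusted P value 0.0674 by edgeR). In KO_ASO vs KO_PBS 10 of the 11 had positive log2FC, with a median of 0.87; edgeR called 0, 8 had an unadjusted p under 0.05, and DESeq2 called Igtp and Cxcl9. The summed level of this list was 243 CPM in KO_ASO replicate 4 and ran from 100.6 to 189 CPM in the other 3 KO_ASO libraries. Over all genes edgeR called 12.6% in KO_PBS vs WT_PBS and 3.64% in KO_ASO vs KO_PBS, and DESeq2 14.1% and 6.44%. An unadjusted p under 0.05 by edgeR was found in 27.3% and 17.7% of all genes.

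Macrophage markers were higher in KO_PBS than in WT_PBS or KO_ASO, as were the means of the 3 class II chains, and their part in the class II differences was not tested. All 9 (Cd68, Adgre1, Csf1r, Itgam, Lyz2, Mrc1, Cd163, C1qa and Fcgr1) rose in KO_PBS vs WT_PBS, where 7.43% of all genes rose, and 5 of 9 fell in KO_ASO vs KO_PBS by edgeR, where 2.83% fell; DESeq2 called 9 and 8 of them, against 14.1% and 6.44% of all genes. With the H2-Ea-ps term edgeR called 7 in the first comparison, without Fcgr1 and Mrc1 (adjusted P values 0.0992 and 0.0763), and 5 in the second. Without KO_PBS replicate 4 edgeR called 5 in the first comparison and 3 in the second, and with any 1 of the 8 libraries of the groups compared left out at least 4 (Cd68, Cd163, Csf1r and C1qa) and at least 3 (Cd68, Cd163 and Csf1r). Their summed level ran from 41.2 to 67.9 CPM in WT_PBS, from 42.7 to 91.1 CPM in WT_ASO, from 108.7 to 322 CPM in KO_PBS and from 44.3 to 67.4 CPM in KO_ASO. KO_PBS replicate 4 had the highest macrophage sum, 322 CPM, but not the highest H2-Aa level, which was in replicate 1, with a sum of 180.6 CPM. In replicates 1 to 4 of WT_PBS the sums were 67.9, 65.0, 41.2 and 43.8 CPM, beside H2-Aa at 27.4, 18.8, 13.5 and 12.7 CPM. In WT_ASO they were 45.85, 42.7, 91.1 and 74.9 CPM, beside 6.74, 10.5, 20.3 and 23.3 CPM. In KO_PBS they were 180.6, 109.0, 108.7 and 322 CPM, beside 38.4, 34.1, 23.1 and 29.2 CPM. In KO_ASO they were 47.6, 44.3, 52.7 and 67.4 CPM, beside 14.6, 15.6, 15.3 and 18.0 CPM. None of the 9 was at 0 in a whole group. In WT_ASO vs WT_PBS, where edgeR and DESeq2 called none of either set and none had an unadjusted p under 0.05, the 9 markers had positive log2FC, with a median of 0.48, and the 3 chains negative log2FC, with a median of -0.24.

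The muscle fibre markers also differed between the groups, and their part in the class II differences was not tested. Their summed level ran from 127700 to 164700 CPM in WT_PBS, from 133200 to 192600 CPM in WT_ASO, from 96460 to 117100 CPM in KO_PBS and from 114100 to 133600 CPM in KO_ASO, so that every KO_PBS library lay below every WT_PBS library. By edgeR Des, which encodes the intermediate filament desmin, rose by 0.75 log2 in KO_PBS vs WT_PBS (adjusted P value 0.000118) and fell by 0.60 in KO_ASO vs KO_PBS (adjusted P value 0.00303). Tnnt3, fast skeletal troponin T, fell by 0.40 in the first (adjusted P value 0.0153, or 0.0504 without KO_PBS replicate 1), and the other 4 were not called in either; DESeq2 called Ckm as well in the first and Tnnt3 in the second. Of all genes edgeR called 12.6% in the first and 3.64% in the second, and DESeq2 14.1% and 6.44%.

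Markers of other cells were followed too. Of 7 dendritic cell markers 3 were tested and edgeR called 0 in either comparison, with 1 at an unadjusted p under 0.05 in each and 0 by DESeq2, and Flt3, Xcr1, Clec9a and Ccr7 averaged at most 0.169 CPM in any group; the list summed to between 7.00 and 14.5 CPM, most of it Zbtb46, which endothelium also makes. Of the B cell markers, Ighm and Igkc were tested, and edgeR called 0, with 1 at an unadjusted p under 0.05 in each comparison, while DESeq2 called Ighm in both. Ighm, the heavy chain of immunoglobulin M, ran from 54.8 to 123 CPM in WT_PBS, from 37.5 to 101 CPM in WT_ASO, from 12.4 to 44.9 CPM in KO_PBS and from 19.8 to 122 CPM in KO_ASO. Cd79a, Ms4a1 and Pax5 averaged at most 0.0514 CPM in any group. T and natural killer cell markers, 1 of 8 tested, with 0 called by edgeR or DESeq2 and 0 at an unadjusted p under 0.05, summed to between 0.167 and 1.01 CPM. Endothelial markers, 5 of 5 tested, had 0 called by edgeR and DESeq2, with 1 and 2 at an unadjusted p under 0.05 in the 2 comparisons, and summed to between 249 and 472 CPM. Among all genes 27.3% and 17.7% had an unadjusted p under 0.05 by edgeR in KO_PBS vs WT_PBS and KO_ASO vs KO_PBS. Calls of all genes were 12.6% and 3.64% by edgeR and 14.1% and 6.44% by DESeq2.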

How the data were processed

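Polyadenylated RNA of tibialis anterior from 16 mice, 4 per group, had been sequenced after extraction with TRI Reagent and a stranded TruSeq library. The authors deposited raw counts per gene with Ensembl identifiers, made on GRCm38 (mm10). Tools listed by the submitters, with no stated role, are HTSeq 0.6.1p1, STAR 2.5.3a, Bowtie2 2.2.8 and cutadapt 1.10. Which annotation release was counted, with what strand option and from reads of what length is not given in the sources used here. Reads of a strain that differs from the C57BL/6J reference may align elsewhere or not at all, which bears on the MHC and on near copies.

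Symbols and positions came from GENCODE M21, which held all 29730 identifiers. Genes were filtered with filterByExpr by group (14960 left, 14770 removed), scaled by TMM and fitted with edgeR 4.0.16 in R 4.3.3 by robust quasi-likelihood over the 16 samples with 1 mean per group. P values were adjusted by Benjamini-Hochberg over all genes tested, and calls were made at 0.05. Log2FC is the fitted log2 fold change with its standard error, and CPM is the count divided by the library's total after TMM scaling. The biological coefficient of variation was 18.7%. The H2-Ea-ps division used log2 CPM with a prior count of 2 and no test, since it was made on measured values. A single gene was compared by a two-sided exact permutation test. Transcripts were compared with blastn 2.17.0. The fits were tested on simulated data.

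Alternatives were DESeq2 1.42.0, size factors by relative log expression (RLE), no filter, the replicate number as a block, only the groups compared, H2-Ea-ps class as a term and each sample of the groups compared left out. A fit of only the samples with H2-Ea-ps, and for called genes of the lists the fits with each sample of the groups compared left out or with the H2-Ea-ps term, were added after seeing the data. The H2- genes and the gene lists were chosen with earlier results of these data known. Genes described in full were H2-K1, H2-D1, H2-T23, H2-Q4, H2-Aa, H2-Ab1, H2-Eb1, H2-DMa, H2-Ea-ps and H2-Ke6. Nothing says whether samples came from separate litters or extractions, so P values measure the spread between these 16 mice. 1 marker gene of the B cell list, and the list's sum, are not reported here.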

Additional observations from a re-analysis of the deposited data

Results flagged for a closer look

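In each group of 4, the highest and the lowest CPM of the 23 tested members other than H2-Ea-ps, on which the samples were divided, were compared with the nearest other value by Dixon's criterion. Of 92 groups 11 had such a separate library (12.0%), where chance gives about 1 in 20. KO_ASO replicate 4 accounted for 7 of the 11: H2-Q4 stood at 29.4 CPM, H2-Q5 at 3.07, H2-Q6 at 25.5, H2-Q7 at 15.9, H2-T10 at 1.18, H2-T23 at 14.8 and H2-Eb1 at 13.3 CPM, all above the rest of the group. H2-Ea-ps, not counted here, stood at 0.0348 CPM in it. The same library had the highest interferon gamma list sum of all, 243 CPM, and their part in each other was not tested. Since the genes of a library are not independent, these are not 7 separate events.

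WT_PBS replicate 2, the only WT_PBS library with H2-Ea-ps, stood apart in H2-Q2, at 1.15 CPM, and had H2-Ea-ps at 4.32 CPM. KO_PBS replicate 2, the only KO_PBS library without H2-Ea-ps, stood apart in H2-Q6, at 4.48 CPM. WT_ASO replicate 4, the only WT_ASO library without it, stood apart in H2-Ob, at 0.306 CPM. KO_PBS replicate 3 stood apart in H2-Q4, at 12.2 CPM.

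The effect of the oligonucleotide differed between the genotypes, by edgeR's interaction term over all genes, in 4 of the 61 tested genes of the lists, beside 0.575% of all genes: it was higher in knockout than in wild type by 2.26 log2 for Cxcl9, and differed by -3.11 for Cd68, by -2.05 for Cd163 and by -0.74 for Des. With 1 library left out in turn only Cd68 was called each time, and with the H2-Ea-ps term Cd163 was no longer called (adjusted P value 0.0757 by edgeR). No H2- gene passed that test by edgeR, and DESeq2 called H2-Q4.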

How the results depend on the processing

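Of the counts of called H2- genes, and of the chromosome 17 count, 109 values over the alternatives stayed as reported. Fitting only the groups compared called 6 of the members in KO_PBS vs WT_PBS (H2-Q4, H2-Q5, H2-Q7, H2-Eb1, H2-Q6 and H2-Ab1) and 3 in KO_ASO vs KO_PBS (H2-Aa, H2-Eb1 and H2-Ab1), where edgeR over all 16 samples called 0; these fits called 14.3% and 2.09% of all genes. DESeq2 called 2 in KO_ASO vs KO_PBS and 1 in the interaction, where it called 6.44% and 2.2% of all genes. The cause was not tested. No member was called over all 16 samples, so no called value could reverse, and 49 values of single members changed sign. With each sample of the groups compared left out in turn, 0 members were called in any comparison.

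The replicate number as a block called 1 member in KO_ASO vs KO_PBS, H2-Q4 (adjusted P value 0.0443 by edgeR), and 0 in the others. This fit called 5.03% of all genes in KO_ASO vs KO_PBS and 15.5% in KO_PBS vs WT_PBS. Without the block the shares were 3.64% and 12.6%. Deviations of the 24 same-numbered pairs correlated between -0.078 and 0.435, with a median of 0.075 against -0.027 for pairs of unlike number. Of the 16 samples 14 correlated best with a sample of their own number. The data thus hint at something shared by number. The labels describe no such sharing, so the numbers were not taken as pairs, and both fits are given here.

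Dividing the samples at 50 counts of H2-Ea-ps instead of 10 moved WT_ASO replicate 1, with 44 counts, and left 5 chromosome 17 genes apart instead of 17. With a sample left out the number was between 17 and 24. Removing a sample cannot make separate values overlap, so leaving samples out could not show the number to be smaller. A fit of only the samples under 10 counts was not run, because only WT_PBS has 2 or more of them.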
